A study of Mus musculus with 8 samples.

Results

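A set of 10 genes known as direct outputs of Wnt/beta-catenin signalling was followed in kidney tumors of Lin28 transgenic mice and in normal kidneys. They are the intracellular feedback genes Axin2 and Nkd1, the transcription factors Lef1 and Tcf7, the receptor Lgr5, the membrane ubiquitin ligases Rnf43 and Znrf3, the inhibitors Notum and Apcdd1, and the receptor Tnfrsf19. They were taken by name, as all probes that the platform annotation assigns to these symbols, whatever their values. The 10 genes themselves were chosen with earlier results of these data known. Of the 10 genes 9 have a probe, 11 probes in all, out of 16593 named genes on the array. Tcf7 has no probe under that symbol in the annotation used, so its expression was not analysed here.

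The study compared 4 kidney tumors from Lin28 transgenic animals, labelled as Wilms tumors, with 4 control kidneys, labelled as normal. Tumor 1 and control 1 are from animals of 5 weeks, and tumors and controls 2 to 4 are from animals of 4 months. Total RNA of each sample was measured on a single-colour Illumina bead array, and the labels call the samples biological replicates. The labels do not state the promoter that drives the transgene, the genotype of the controls, the strain or the sex.

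Wnt proteins bind Frizzled and Lrp5 or Lrp6 at the cell surface and so stop a complex of Axin, Apc, Gsk3 and casein kinase from marking beta-catenin for destruction. Beta-catenin then enters the nucleus and, with factors of the TCF/LEF family, switches on target genes, many of which act back on the pathway. In the embryonic kidney this signal, sent out by the ureteric bud, both maintains nephron progenitors and starts their conversion to epithelium.

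The promoter windows below, each from 250 bases before to 50 bases after a transcription start in RefSeq (GRCm38.p6), are shown for the 2 members with the largest rises reported further on. In Axin2 (chr11:108920099-108920398, plus strand) the capitals mark GGGCGG, the core of a GC box, and in Tnfrsf19 (chr14:61037938-61038237, minus strand) they mark ATCAAAG, which is the TCF/LEF word CTTTGAT read on the other strand.
Axin2: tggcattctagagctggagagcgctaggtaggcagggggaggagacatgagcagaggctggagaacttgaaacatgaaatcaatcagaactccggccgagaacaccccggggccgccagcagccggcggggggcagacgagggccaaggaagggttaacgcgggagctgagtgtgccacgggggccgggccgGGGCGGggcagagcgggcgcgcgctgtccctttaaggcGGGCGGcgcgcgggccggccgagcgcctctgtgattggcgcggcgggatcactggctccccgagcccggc
Tnfrsf19: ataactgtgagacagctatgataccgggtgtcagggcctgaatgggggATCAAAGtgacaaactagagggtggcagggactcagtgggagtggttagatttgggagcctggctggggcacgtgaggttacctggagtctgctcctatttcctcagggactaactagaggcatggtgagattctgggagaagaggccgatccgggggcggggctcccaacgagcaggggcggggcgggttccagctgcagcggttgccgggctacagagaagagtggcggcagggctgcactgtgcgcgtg

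The words CTTTGAA and CTTTGAT were searched on both strands in 12 RefSeq windows of 6 of the 10 genes. The search of member windows left out 1 chromosome, a step not applied to the count over all windows. No window of Lgr5, Notum, Znrf3 or Apcdd1 was searched. The Tnfrsf19 window shown was the only one of the 12 with a match, which starts 202 bases before the transcription start. The other Tnfrsf19 window and those of Axin2, Lef1, Tcf7, Nkd1 and Rnf43 had none. Of all 32851 windows of 300 bases, 8.65% held at least 1 of these words. GGGCGG was found in 7 of the 12 windows and in 35.7% of all windows. A TCF/LEF word and GGGCGG can share at most 1 base, and a match describes the letters in the window, not a bound site. Other forms of the TCF/LEF word and bases outside the windows were not searched, so a gene without a match may still have such sites.

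Values are intensities that the authors had background-subtracted and scaled to the same mean on every array. The detection limit of an array was taken as 3 times the noise of its values below 0. For tumor 1 it was 27.6, and the other 7 arrays had limits of 10.7 to 16.5. Tests were run with limma on the log2 of intensity + 16 over the 15418 of 25697 probes with a mean at or above the 40th percentile. Because 16 was added, a change in log2 units, and a fold taken from it, understates the change of dim genes. Over all of these probes 42.5% were called at an adjusted p under 0.05, of which 4775 (31.0% of the probes) rose and 1775 (11.5%) fell in tumors, and the median probe differed by 0.33 log2 units. The split of 72.9% higher depends on the scaling, since 47.9% to 55.2% of the calls were higher with cyclic loess, quantile normalization or scaling to the same median, and the median probe then differed by -0.03 to 0.10.

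Some samples stood apart. Tumor 1 kept much of the signal of the mature tubule, with a summed intensity of 34968 for 7 proximal tubule markers, against 792 to 2243 in tumors 2 to 4 and 36258 to 66719 in controls. Of these markers 0 rose and 7 fell. Of 4 measured sex markers, Xist and Kdm5d divided the arrays nearly as the groups do. Xist, which is transcribed from the inactive X, had 155 to 301 in tumors, 34.8 in control 2 and 2.2 to 8.1 in the other controls. The Y-linked Kdm5d had -0.4 to 4.6 in tumors, -5.6 in control 2 and 44.7 to 53.7 in the other controls. The Y-linked Uty overlapped, with 7.5 to 25.1 in tumors and 10.3 to 40.9 in controls (limma adjusted p = 0.281). Eif2s3y, also Y-linked, was under the detection limit on all arrays. The labels do not state the sex, the groups may differ in it, and its part in the results was not tested. In bulk tissue fewer cells of a type and less RNA per cell cannot be told apart.

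Of the 11 member probes, 4 rose and 1 fell in tumors. Axin2, Tnfrsf19, Lgr5 and Apcdd1 rose, and Notum fell, both with the filter on dim probes, where 31.0% of all probes rose and 11.5% fell (42.5% in either direction), and without it, where 16.6% of the 25697 probes rose and 5.35% fell. The filter kept 7 member probes of 7 genes, of which 4 had no control above the detection limit. Of the 7, Nkd1 and Rnf43 did not pass the test. The other 4 probes, 2 for Lef1, 1 for Znrf3 and a second for Tnfrsf19, were at or under the detection limit on all 8 arrays. The intensities of tumors and controls did not overlap for 4 of the 7 kept probes, against 38.9% of all kept probes.

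**Figure D1:**
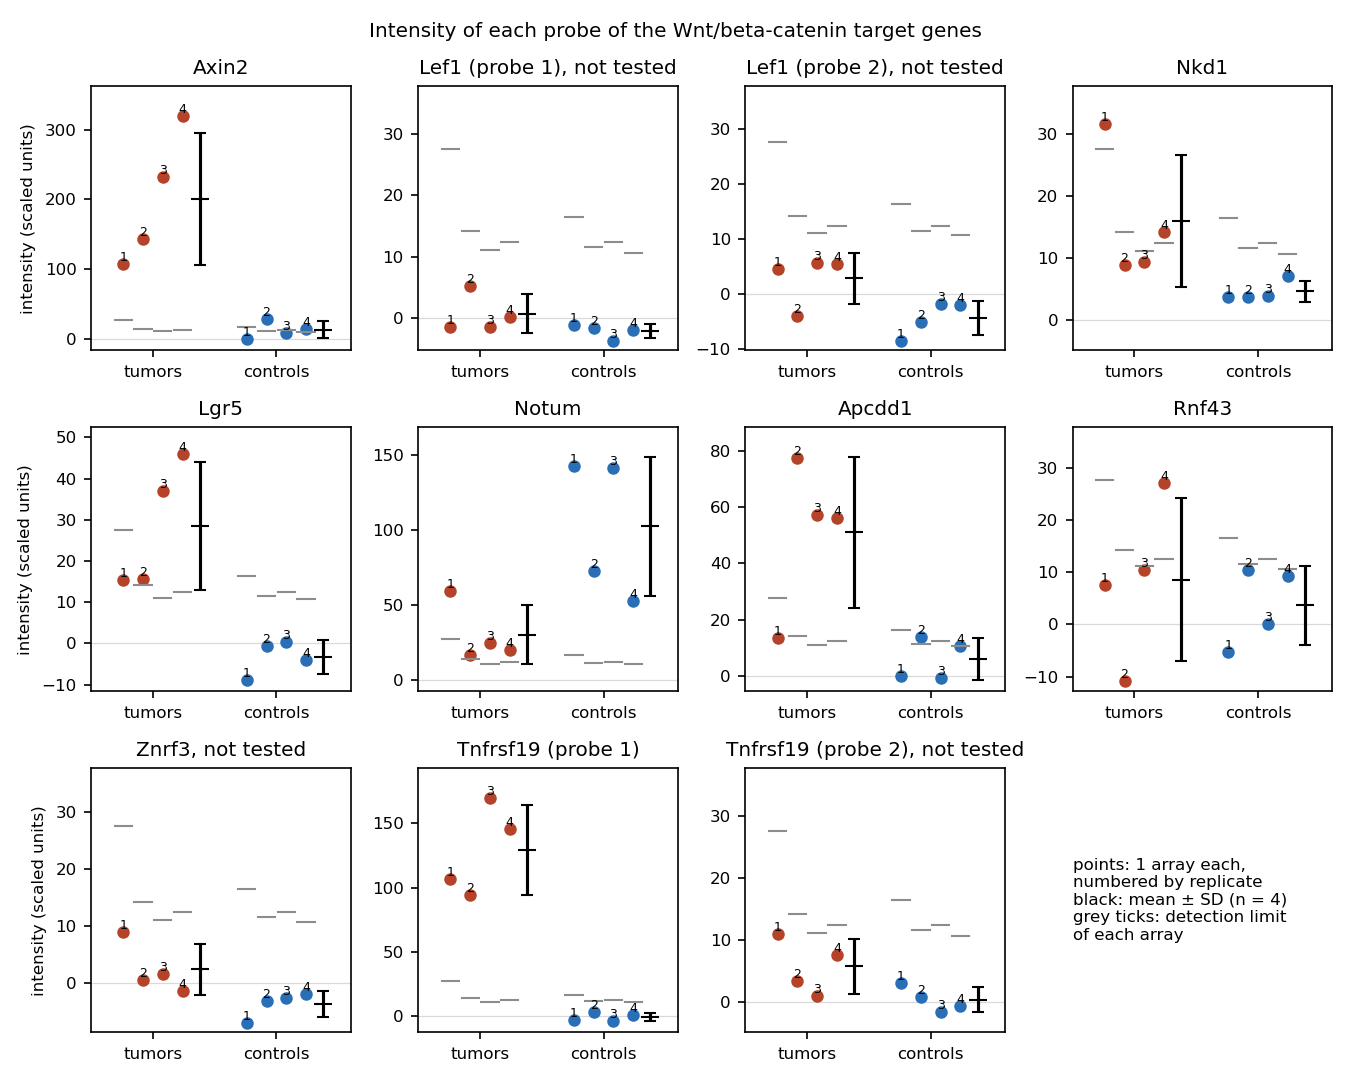
Intensity (scaled linear units) of each of the 11 probes, with 1 point per array numbered by replicate, tumors left in red and controls right in blue. Black bars are means ± SD (n = 4) and grey ticks the detection limit of each array. Axin2, Tnfrsf19 (probe 1), Lgr5 and Nkd1 show no overlap among the tested probes, and only Notum is higher in controls, with tumor 1 above control 4.

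Axin2 is a scaffold of the destruction complex and is widely used as a readout of the pathway, since beta-catenin induces its own inhibitor through it. Axin2 had intensities of 108, 143, 232 and 319.6 in tumors 1 to 4, against -0.4, 29.2, 9.1 and 14.9 in controls 1 to 4. The lowest tumor was well above the highest control, and control 2 was the highest of the controls. Tumors averaged 201 ± 94.9 and controls 13.2 ± 12.4 (SD, n = 4 each). The rise of Axin2 was 2.88 ± 0.39 (SE) on the log2 scale, or 7.36-fold, with a 95% interval of 1.99 to 3.76 (adjusted p = 9.78e-04). All tumors but only 2 of the 4 controls were above the detection limit. Between the tumors and controls of 4 months alone the rise was 2.85 (limma adjusted p = 0.00121).

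Nkd1, which binds Dishevelled and dampens the signal, stayed near the detection limit. It read 31.6, 8.8, 9.3 and 14.2 in tumors 1 to 4, against 3.7, 3.7, 3.8 and 7.1 in controls 1 to 4. The groups did not overlap, but only tumors 1 and 4 and no control were above the limit. The difference of 0.59 ± 0.23 log2 units did not pass (limma adjusted p = 0.0712, unadjusted p = 0.0333, 95% interval 0.06 to 1.11). Without tumor 1, the brightest array for Nkd1, the difference was 0.38 (adjusted p = 0.102). Nkd2, the second Naked gene, is given with the other targets below.

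Lgr5 is a receptor for R-spondins, which strengthen Wnt signalling, and marks stem cells in several epithelia. Lgr5 read 15.3, 15.7, 37.1 and 45.9 in tumors 1 to 4, against -8.9, -0.7, 0.4 and -3.9 in controls 1 to 4. All 4 controls were at or under the limit, and 3 of the 4 tumors were above it, tumor 1 being under its own higher limit. The rise was 1.40 ± 0.25 log2 units (adjusted p = 0.00330), and against the limit of the control arrays Lgr5 was 2.01-fold higher. This fold takes tumor 1 at its signal of 15.3, although that signal was under its limit. Tumors 3 and 4 were the highest for Lgr5 and for Axin2, and tumors 1 and 2 the lowest for both, although the gap between tumors 1 and 2 for Lgr5 was only 0.40 intensity units.

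Rnf43 and Znrf3 are ubiquitin ligases that remove Frizzled receptors from the cell surface and are themselves bound by R-spondins together with Lgr receptors. Rnf43 read 7.6, -10.9, 10.5 and 27.1 in tumors 1 to 4, against -5.2, 10.5, 0.1 and 9.2 in controls 1 to 4. Only tumor 4 was above the limit, and the groups overlapped. The difference was 0.33 ± 0.32 log2 units and did not pass (adjusted p = 0.435, 95% interval -0.40 to 1.06). Its interval holds 0 as well as a change of 1.00 log2 unit. Znrf3 ranged from -1.4 to 8.9 in tumors and from -7.0 to -1.9 in controls. All 8 values were under the limit, so no level can be given for either group.

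Notum, a secreted enzyme that strips the lipid from Wnt proteins and so silences them, went the other way. It read 59.3, 16.8, 24.5 and 20.3 in tumors 1 to 4, against 142, 72.9, 141 and 52.7 in controls 1 to 4. All 8 arrays were above the limit, and tumor 1 lay above control 4, so the groups overlapped. Tumors averaged 30.2 ± 19.6 and controls 102 ± 46.2 (SD, n = 4 each), a change of -1.35 ± 0.36 log2 units, or 2.54-fold (limma adjusted p = 0.0163, 95% interval -2.16 to -0.53). Without control 3 the change was -1.18 and did not pass (limma adjusted p = 0.0502). Tumor 1, which read highest for Notum among the tumors, was also the tumor with the highest summed signal of proximal tubule markers. The part of mature tubule in the difference was not tested. Without tumor 1 the change was -1.61 (adjusted p = 0.00422).

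Apcdd1 is a membrane glycoprotein that binds Wnt and Lrp5 and inhibits the signal. It read 13.6, 77.3, 57.3 and 56.0 in tumors 1 to 4, against 0.1, 14, -0.7 and 10.7 in controls 1 to 4. Tumors 2 to 4 were well above every control, while tumor 1 was under its limit and under control 2. Tumors averaged 51.1 ± 26.8 and controls 6.03 ± 7.43 (SD, n = 4 each). The rise was 1.54 ± 0.38 log2 units, or 2.90-fold (limma adjusted p = 0.0121), and 1.89 without tumor 1 (adjusted p = 0.00103). The call was lost with cyclic loess (1.09, adjusted p = 0.0530), with quantile normalization floored at 1 (3.07, 0.0755) and with normexp correction (0.53, 0.0624). Apcdd1 was highest in tumor 2 and control 2. Tumor 2 also had the highest summed signal of 8 stroma markers, 19520.4, against 7655 to 10388.5 in the other tumors and 1080 to 3119 in controls. All 8 stroma markers rose, and their part in the change of Apcdd1 was not tested.

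Tnfrsf19, also called Troy, is a receptor of the tumor necrosis factor receptor family that beta-catenin induces in the intestine. Its brighter probe read 106, 94.1, 170 and 146 in tumors 1 to 4, against -3.0, 3.2, -3.9 and 1.1 in controls 1 to 4. Every tumor was far above every control, and all 4 controls were under the limit. The highest tumor was 1.81 times the lowest for Tnfrsf19 and 2.96 times for Axin2, with all tumors above the limit for both. The difference for Tnfrsf19 was at least 9.95-fold, and the fitted rise was 3.06 ± 0.21 log2 units (adjusted p = 5.44e-05). A second Tnfrsf19 probe ranged from 0.9 to 10.9 in tumors and from -1.7 to 3.0 in controls, under the limit on every array. Which transcripts the probes measure was not analysed here.

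Lef1 is a factor through which beta-catenin acts in the nucleus and is itself a target. Its probes ranged from -1.4 to 5.3 and from -4.0 to 5.6 in tumors, and from -3.7 to -1.2 and from -8.4 to -1.8 in controls. No array was above its limit for either probe, so the arrays show no Lef1 level in tumors or controls. In the fit without a filter the differences were 0.11 ± 0.10 and 0.31 ± 0.10 log2 units (adjusted p = 0.531 and 0.0739). Lef1 is also a gene of T cells. Of 8 measured T cell markers 0 rose and 0 fell, their summed intensity was 34.6 to 114 in tumors and 6.80 to 155 in controls, and Cd4, Cd8a, Cd2 and Cd5 were under the limit on all arrays.

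**Figure D2:**
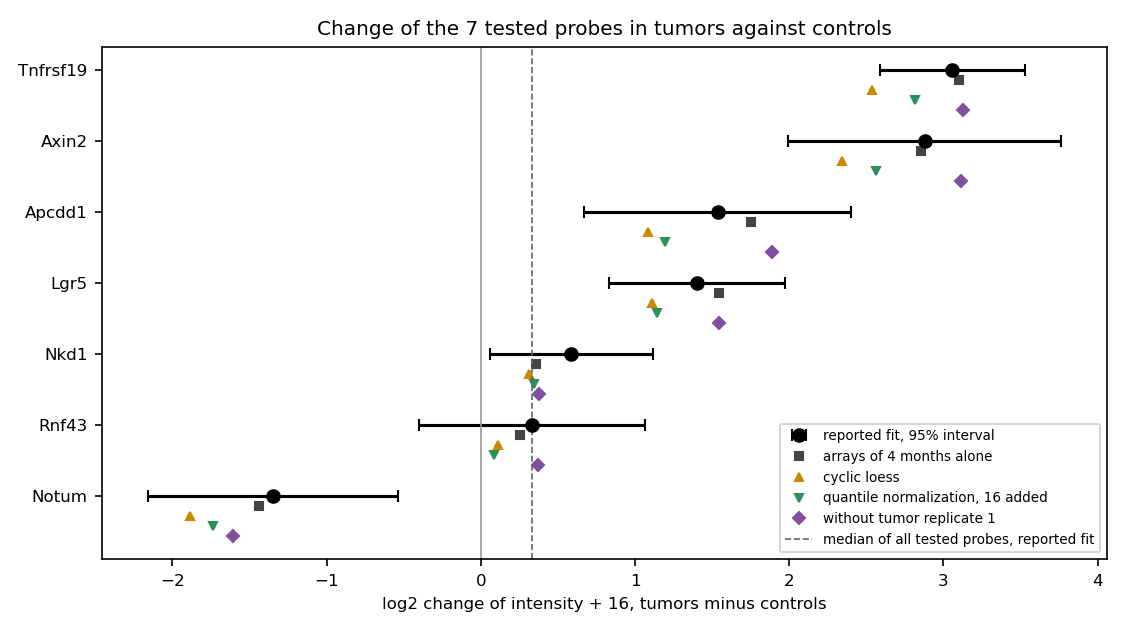
Log2 change of intensity + 16, tumors minus controls, of the 7 tested probes, with the 95% interval of the reported fit and the value under 4 other settings. Tnfrsf19 (3.06) and Axin2 (2.88) changed most and Notum (-1.35) lies below 0 under each setting drawn, while the intervals of Nkd1 and Rnf43 hold the dashed median of all tested probes (0.33).

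The genes that carry and shape the signal were described from lists of 77 gene symbols. Probes exist for 67 of them, and 50 genes were tested. By the brightest kept probe of each gene 29 of the 50 rose and 1 fell, against 31.9% and 12.2% of all 10531 genes tested. The median change over the 50 was 0.79 log2 units, against 0.35 over all genes. Fewer probes rose over the whole array under the other scalings used below. There 2639 to 3225 of the 15418 kept probes rose, against 4775 in the reported fit.

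Of 11 tested genes of the destruction complex and signal relay 4 rose and 0 fell (median 0.53). The share that rose was near the 31.9% of all genes tested, of which 12.2% fell. Only 2 rose under each of the other scalings, and the median was -0.01 with cyclic loess. Lrp6 did not pass (-1.38, limma adjusted p = 0.139) but was called as lower without control 2 (-1.97, limma adjusted p = 0.0282). Ctnnb1, beta-catenin itself, read 4725, 3732, 3462 and 4147 in tumors 1 to 4, against 2211, 2923, 2055 and 2463 in controls 1 to 4. The groups did not overlap, and the rise was 0.73 ± 0.19 log2 units (limma adjusted p = 0.0135), with 0.99 ± 0.17 for a second probe. The call for the brighter probe was lost when the arrays were brought to a common median (0.40, limma adjusted p = 0.109) and at 4 months alone (0.62, limma adjusted p = 0.0511). Csnk1e, a casein kinase that acts on Dishevelled, rose by 2.13 ± 0.38 log2 units. Amer1, a membrane partner of Apc that is mutated in some human Wilms tumors, rose by 0.71 ± 0.19, a call lost with cyclic loess (0.31, adjusted p = 0.203) and with quantile normalization of 3 kinds. Gsk3b, the kinase of the complex, was the fourth to rise (0.61 ± 0.17). Its call was lost with cyclic loess (0.14, adjusted p = 0.545), without tumor 4 (0.56, adjusted p = 0.0581) and without control 3 (0.54, adjusted p = 0.0703), among other settings.

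Of 13 tested nuclear partners 10 rose and 0 fell (median 1.04), and 6 to 7 rose under the other scalings. Tcf7l1, a TCF factor known mainly as a repressor, read 571, 638, 1149 and 2078 in tumors 1 to 4, against 75.4, 284, 116 and 181 in controls 1 to 4. Its order among the tumors, lowest in tumor 1 and highest in tumor 4, was that of Axin2. The rise of Tcf7l1 was 2.59 ± 0.48 log2 units (adjusted p = 0.00368), and 1.05 ± 0.22 for a dimmer probe. Tle1, a corepressor that binds TCF factors, rose by 1.71 ± 0.42, although a second kept probe missed the threshold with 1.13 ± 0.54 (adjusted p = 0.123). Pygo1, which links beta-catenin to methylated histones, rose by 1.54 ± 0.20.

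Of 14 other tested targets of beta-catenin 7 rose and 1 fell (median 0.67), and 3 to 6 rose under the other scalings. Nkd2, which binds Dishevelled like Nkd1, read 72.2, 144, 162 and 91.8 in tumors 1 to 4, against -7.4, 5.9, 1.0 and 12.6 in controls 1 to 4. The groups did not overlap, and only control 4 of the controls was above the limit. The rise of Nkd2 was 2.66 ± 0.29 log2 units (adjusted p = 3.61e-04). Sox9, a transcription factor of the ureteric bud and of repairing tubules, rose by 2.07 ± 0.64 (limma adjusted p = 0.0285), but control 4 (76.5) lay above tumors 1 and 2 (44.6 and 69.9). Of 23 alternatives 11 lost this call, among them each fit that left out tumor 3, tumor 4 or control 1, 2 or 3 (changes of 1.62 to 2.03, limma adjusted p of 0.0628 to 0.0796). Cd44, a receptor for hyaluronan, rose by 1.89 ± 0.43 and was highest in tumor 2 (293), the tumor with the most stroma signal. This call was lost with normexp correction (0.90, adjusted p = 0.0692). A second kept Cd44 probe rose by 0.64 ± 0.18, and another kept probe, with 1 array above the limit, differed by 0.20 ± 0.19 (adjusted p = 0.424).

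Myc, the growth regulator, read 28.7, 16.6, 30.9 and 56.7 in tumors 1 to 4, against 3.8, 0.8, 5.1 and 4.4 in controls 1 to 4. All tumors were above the limit and no control was, which makes Myc at least 2.40-fold higher (fitted rise 1.28 ± 0.25 log2 units, adjusted p = 0.00450). A second Myc probe was under the limit on every array. Ccnd1, cyclin D1, had a mean of 3436 ± 616 across tumors and 3774 ± 569 across controls (SD, n = 4 each) and did not pass (-0.14 ± 0.20, limma adjusted p = 0.599). A second Ccnd1 probe had -40.2 in tumor 1, 3447 to 5449.5 in the other tumors and 4181 to 5687 in controls, and the remaining probe differed by -0.04 ± 0.38.

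Sp5, a transcription factor that beta-catenin induces directly, fell. It read 149, 82.3, 176 and 177 in tumors 1 to 4, against 501, 261, 467 and 295 in controls 1 to 4. The highest tumor was below the lowest control. The change of Sp5 was -1.29 ± 0.30 log2 units (adjusted p = 0.00906), close in size to that of Notum. Controls 1 and 3 were the highest for Sp5 and for Notum, and controls 2 and 4 the lowest. Tumor 1 was not the highest tumor for Sp5, unlike for Notum. The summed proximal tubule signal was 66719 and 58056 in controls 1 and 3, against 48323 and 36258 in controls 2 and 4. The part of mature tubule in the change of Sp5 was not tested.

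Of 10 kidney genes that were reported to need Wnt9b or beta-catenin in the embryo 6 rose and 0 fell (median 1.93), and 5 to 6 rose under the other scalings. Uncx, a homeobox factor of the metanephric mesenchyme, read 397, 168, 749 and 1495 in tumors 1 to 4, against 6.4, 6.4, 23.8 and 6.3 in controls 1 to 4, a rise of 4.40 ± 0.57 log2 units. Wnt4, the Wnt that drives progenitors to epithelium, read 211, 209.8, 265 and 246.5 in tumors 1 to 4, against -3.2, 28.1, 3.6 and 4.3 in controls 1 to 4, and rose by 3.43 ± 0.31 log2 units. Fgf8, a growth factor of the first epithelial stage, was at least 8.00-fold higher. Of 7 nephron progenitor markers 6 rose, among them Cited1, which is also 1 of the 6 kidney genes that rose, with a summed intensity of 786 to 2611 in tumors and 193 to 292 in controls. Of 3 markers of dividing cells 2 rose, and their sum was 761 to 1633 in tumors and 8.50 to 31.7 in controls. Their part in the changes of the members was not tested.

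R-spondins are the secreted ligands of Lgr5. Of 4 genes 2 were tested, and both rose. Rspo3 read 121, 59.0, 111 and 298 in tumors 1 to 4, against 4.4, 14.1, 7.2 and 10.7 in controls 1 to 4, and rose by 2.52 ± 0.39 log2 units (adjusted p = 0.00172). Rspo1 was above the limit only in tumors 3 and 4 and in no control, and rose by 1.52 ± 0.48 (adjusted p = 0.0313). Of 23 alternatives 13 lost this call, among them each fit that left out tumor 3, tumor 4 or control 1, 2 or 3 (changes of 1.14 to 1.51, limma adjusted p of 0.0572 to 0.0849). Rspo2 and Rspo4 were removed by the filter.

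**Figure D3:**
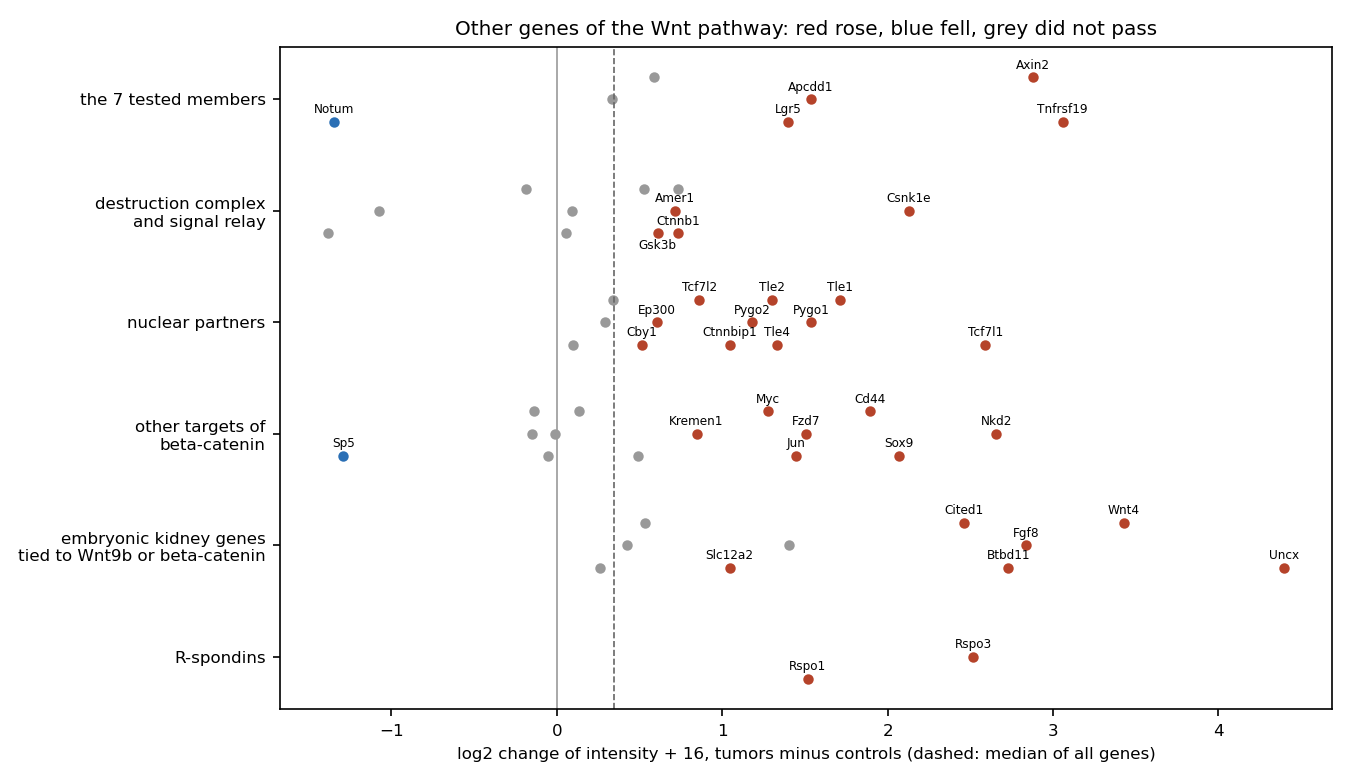
Log2 change of intensity + 16, tumors minus controls, of the brightest kept probe of each tested gene, by list; red rose, blue fell and grey did not pass, and the dashed line is the median of all genes (0.35). Notum and Sp5 are the genes drawn that fell, and Uncx (4.40) and Wnt4 (3.43) rose most.

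**Figure D4:**
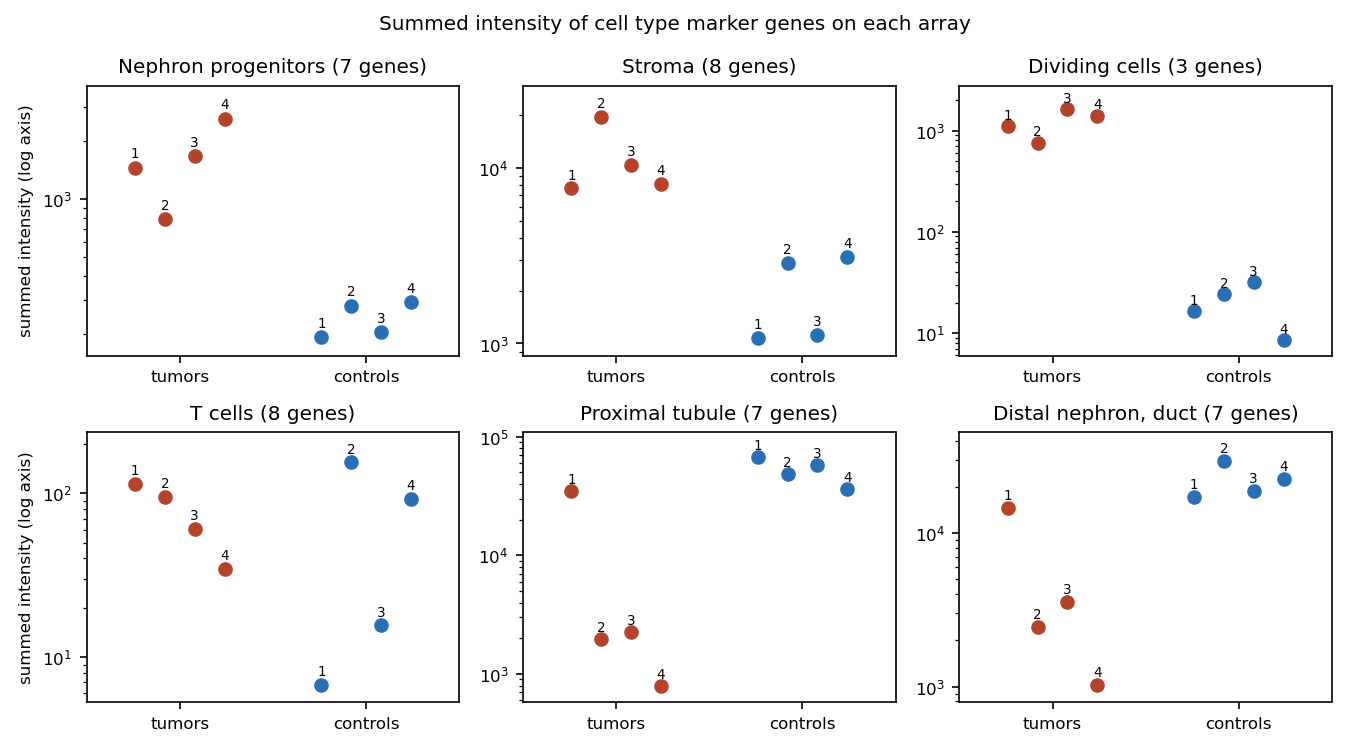
Summed intensity (log axis) of marker genes of 6 cell types on each array, numbered by replicate, tumors left in red and controls right in blue. Tumor 1 (34968) lies close to the controls (36258 to 66719) for the proximal tubule, and tumor 2 (19520.4) is the highest for stroma.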

How the data were processed

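The values are the deposited series values, probe intensities that the authors had background-subtracted and scaled (every array has a mean of 274 and values below 0, as the file shows). The sources used here do not name the software of these steps. Another deposited table was not used because the names of its 16 columns match no sample. The platform annotation names 1 gene for 23978 of 25697 probes and none for 1719. The gene numbers of the 9 measured members are all in RefSeq, and promoter windows were taken by gene symbol. On each array 44.2% to 55.3% of probes exceeded the detection limit, and the number of arrays limits the precision.

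Intensities were floored at 0, and log2 was taken after adding 16. Probes under the 40th percentile of the mean were removed, and each kept probe was tested by a two-sided limma fit without covariates (lmFit, then eBayes; limma 3.58.1, R 4.3.3). P-values were adjusted by Benjamini-Hochberg over all kept probes, with a threshold of 0.05. The fit was tested on simulated data. Where all arrays of 1 group were at or under the limit, "at least N-fold" compares mean log2 intensities. Each array of that group was entered at its limit, and each array of the other group at its signal. The genes named are all members, the 3 largest called rises and 2 largest called falls of each other list, Ctnnb1, Myc, Ccnd1 and Sp5, and the 5 genes most like Axin2. Gsk3b was named after its values were seen. Members, lists and tests were chosen with earlier results of these data known. Marker lists were T cells, B cells, stroma, nephron progenitors, endothelium, dividing cells, proximal tubule, distal nephron with collecting duct, and sex.

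The alternatives were other scalings, normexp correction, no filter, 1 probe per gene, 4 or 64 added, a robust prior with an intensity trend, array weights, age, the replicate number as a block, the arrays of 4 months alone and each array left out. Quantile normalization with 16 added, and leaving out tumor 1 with control 2, were chosen after seeing the data.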

Additional observations from a re-analysis of the deposited data

Results flagged for a closer look

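Among the 22 groups of 4 values checked, 2 values stood far from the other 3 of their group, where chance gives about 1 in 20 groups. The second Lef1 probe read -4.00 in tumor 2, against 4.60 to 5.60 in the other tumors. Nkd1 read 7.10 in control 4, against 3.70 to 3.80 in the other controls. Both values are under the detection limit of their arrays.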

How the results depend on the processing

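Over the 23 alternatives, Axin2, Tnfrsf19 and Lgr5 kept their direction and stayed past the threshold in each, but the size of the change depended on the value added and the normalization. It was 1.54 to 4.06 log2 units for Axin2, 1.45 to 5.94 for Tnfrsf19 and 0.49 to 4.00 for Lgr5, lowest with normexp correction and highest with quantile normalization floored at 1. Apcdd1 was lost in 3 and Notum in 1, which are given in the report. Nkd1 passed with 4 added (1.11, adjusted p = 0.0335) and with array weights (0.40, adjusted p = 0.0386), and Rnf43 passed with array weights (0.62, adjusted p = 0.0410). Rnf43 turned with normexp correction (-0.012, adjusted p = 0.962), and the cause was not tested. The count of member probes called was 5, and 4 to 7 under the alternatives, or 4 to 5 without any 1 array. The count over the other lists was 30, and 20 to 34, or 23 to 31 without any 1 array. Over all probes 6550 were called, and 9953 with array weights, or 4631 to 7452 without any 1 array. The split over all probes was 2639 higher and 2867 lower with cyclic loess, 2696 and 2238 with quantile normalization floored at 1, 2865 and 2452 with normexp, 3225 and 2616 with the same median, and 2958 and 2551 with quantile normalization and 16 added. With the replicate number as a block 6721 probes and the same number of member probes, 5, were called, and 8 nuclear partners rose in place of 10 (Ep300 and Tle2 had adjusted p of 0.0541 and 0.0824), while Pla2g7 passed among the embryonic kidney genes (adjusted p = 0.0125). Deviations of same-numbered tumors and controls correlated at 0.211, 0.225, 0.128 and 0.0689 for numbers 1 to 4. Tumors 1, 3 and 4 correlated best with the control of their own number and tumor 2 with control 4. Since the labels state no pairing and 1 correlation was under 0.1, the numbers were not taken as pairs. Without tumor 1 and control 2 the count of member probes was also 5. Fold changes of Lgr5, Nkd1, Apcdd1 and Rnf43 are limited by the detection limit, since at least 1 tumor of each was under it. Those of Axin2 and Tnfrsf19 are limited too, since 2 of 4 controls for Axin2 and all 4 for Tnfrsf19 were under it.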

Other observations

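The genes whose brightest probe was most like Axin2 over the 8 arrays were Yap1, Frat2, Slc39a6, Ccdc77 and Kdm3a, with Pearson correlations of 0.995 to 1.000 on the log2 scale. The 8 points fall into the 2 groups, which set most of these correlations, so they are a description and carry no test. Frat2, which binds Gsk3 and keeps it from beta-catenin, read 95.7, 118, 209 and 244 in tumors 1 to 4, against -7.1, 26.4, 5.8 and 11.2 in controls 1 to 4. Frat2 and the other genes chosen here for their likeness to Axin2 all share its order within the tumors and within the controls. That shared order goes with the way they were chosen and is not particular to Frat2. Yap1, an effector of the Hippo pathway, had a mean of 609 ± 147 across tumors and 209 ± 49.5 across controls (SD, n = 4 each).

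Of the marker lists not described above, 1 of 4 measured B cell markers rose and 0 fell, against 31.9% of all genes tested that rose. Their summed intensity was 108 to 198 in tumors and 18.9 to 88.4 in controls. Most of this sum was Cd79b, the marker that rose, with 85.3 to 185.8 in tumors and 7.9 to 64.8 in controls. Ms4a1 and Pax5 were under the limit on all arrays, and Cd79a was above it only in control 2. Of 6 endothelial markers 0 rose and 0 fell, with 1380 to 5584 in tumors and 1874 to 3576 in controls. Of 7 markers of the distal nephron and collecting duct 0 rose and 5 fell, with 1026 to 14606 in tumors and 17243 to 29396 in controls. Of the 4 measured sex markers 1 rose and 1 fell.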
